A study of Mus musculus with 6 samples.

Results

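The genes described here encode the enzymes of one-carbon metabolism, threonine and serine use, the methionine cycle and nucleotide synthesis. They were taken as a list of 48 gene symbols, and every array probe that the platform annotation names for one of them was used, whatever its signal. Of the 48 listed genes, 44 were measured, by 92 of the 45281 probes, among 19057 genes with a named probe in all. Tdh, Mat2a, Mthfd1l and Impdh2 were not analysed here. The comparison was between MIN6 cells, a transformed mouse insulinoma line that makes insulin (3 arrays, labelled passage 23), and the D3 line of mouse embryonic stem (ES) cells (3 arrays, labelled passage 21). Each array was an Illumina Mouse WG-6 v2.0 BeadChip that had received total RNA of 1 sample. Per the study's methods both lines grew in the same base medium, the MIN6 cells with a larger share of serum and the D3 cells with leukemia inhibitory factor on gelatin, so cell line and these culture conditions cannot be told apart. Each line is 1 established line, and the methods call the 3 samples independent without saying that they were separate cultures.

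One-carbon metabolism moves single-carbon units, mostly from serine and glycine, onto folate and uses them to build purine rings and thymidylate and to remake methionine. Methionine in turn yields S-adenosylmethionine, the methyl donor for DNA and histones, and the homocysteine left over can be passed through transsulfuration to cysteine. Mouse ES cells are known for a strong dependence on threonine, which they split to glycine and acetyl-CoA, while pancreatic β-cells normally divide little but the MIN6 line is tumour-derived and proliferates.

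The lines matched their labels. The ES cell genes Pou5f1 and Nanog were above background on no MIN6 array and on all D3 arrays, and all 7 ES cell markers were lower in MIN6 cells. All 7 measured β-cell markers, among them Ins2 and Iapp, were above background in MIN6 cells and none in D3 cells. Of 10 fibroblast markers, 0 were above background in MIN6 cells and 1 in D3 cells (Thy1), with a log2 summed signal of 10.30 to 10.38 in MIN6 cells and 10.72 to 10.81 in D3 cells, and the defining genes Col1a1 and Col1a2 were below background on every array. Markers of other islet cells also marked MIN6 cells (5 of 5 measured, 0 in D3 cells), with a log2 summed signal of 14.82 to 14.90 in MIN6 cells and 9.23 to 9.41 in D3 cells. Acinar and ductal markers above background numbered 2 of 7 in MIN6 cells (Krt7 and Krt19) and 3 in D3 cells (these and Cela1). Their log2 summed signal was 12.45 to 12.91 in MIN6 cells and 10.26 to 10.29 in D3 cells. Most of the MIN6 sum came from Krt7, with a mean log2 signal of 12.47 in MIN6 cells and 7.63 in D3 cells. Of 9 measured markers of differentiating embryonic cells, 2 were above background in MIN6 cells (Pax6 and Foxa2) and 3 in D3 cells (Gata6, Eomes and Nes, each lower in MIN6 cells), with a log2 summed signal of 11.32 to 11.54 in MIN6 cells and 10.56 to 10.74 in D3 cells. These counts take a marker that was above background on at least 1 array of the line. Between 34.4% and 35.9% of probes were above background on each array, taken as a detection p under 0.01. The part of other cells in the values below was not tested.

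Most of the enzymes that changed were lower in MIN6 cells. Signals were quantile-normalized and taken to log2, and a gene was called at a Benjamini-Hochberg adjusted p under 0.05 in limma and a change of at least 1.5-fold, judged on its brightest probe. Of the 44 genes, 20 were lower in MIN6 cells (45.5%), 6 were higher (13.6%) and 18 were not called. Among all 19057 genes, 17.5% were lower and 17.1% higher, 34.5% in either direction. Many of those genes were below background, and among the 7223 genes above background on all 6 arrays 28.9% were lower and 27.3% higher. Of the 44 enzymes, 35 met that condition, and 17 of these 35 were lower (48.6%) and 5 higher (14.3%). The median log2 change of the 44 enzymes (MIN6 minus D3) was -0.49, against -0.01 over all genes, and single changes ran between -5.37 and 2.66. Only 4 of the enzymes, Gcsh, Psph, Mthfd2l and Mtr, were below background on every array.

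The arrays of the 2 lines did not overlap for any of the 26 called genes, which the call itself makes likely. They did not overlap for 54.4% of all genes, called or not. Over all 44 enzymes, the MIN6 arrays were all below the D3 arrays for 29 and all above them for 9, and the ranges overlapped for 6. The shares over all genes were 28.1% and 26.3%. Many of those genes were below background. Among the 7223 genes above background on all 6 arrays, the MIN6 arrays were all below for 3104 and all above for 2799. Among the 35 enzymes that met that condition, these counts were 24 and 8. The change was at least 2-fold for 14 of the 20 lower and 4 of the 6 higher genes. The largest adjusted p among the called genes was 2.28e-05, for Umps. Total signal of a line does not separate less RNA of an enzyme per cell from fewer cells that make it.

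**Figure D1:**
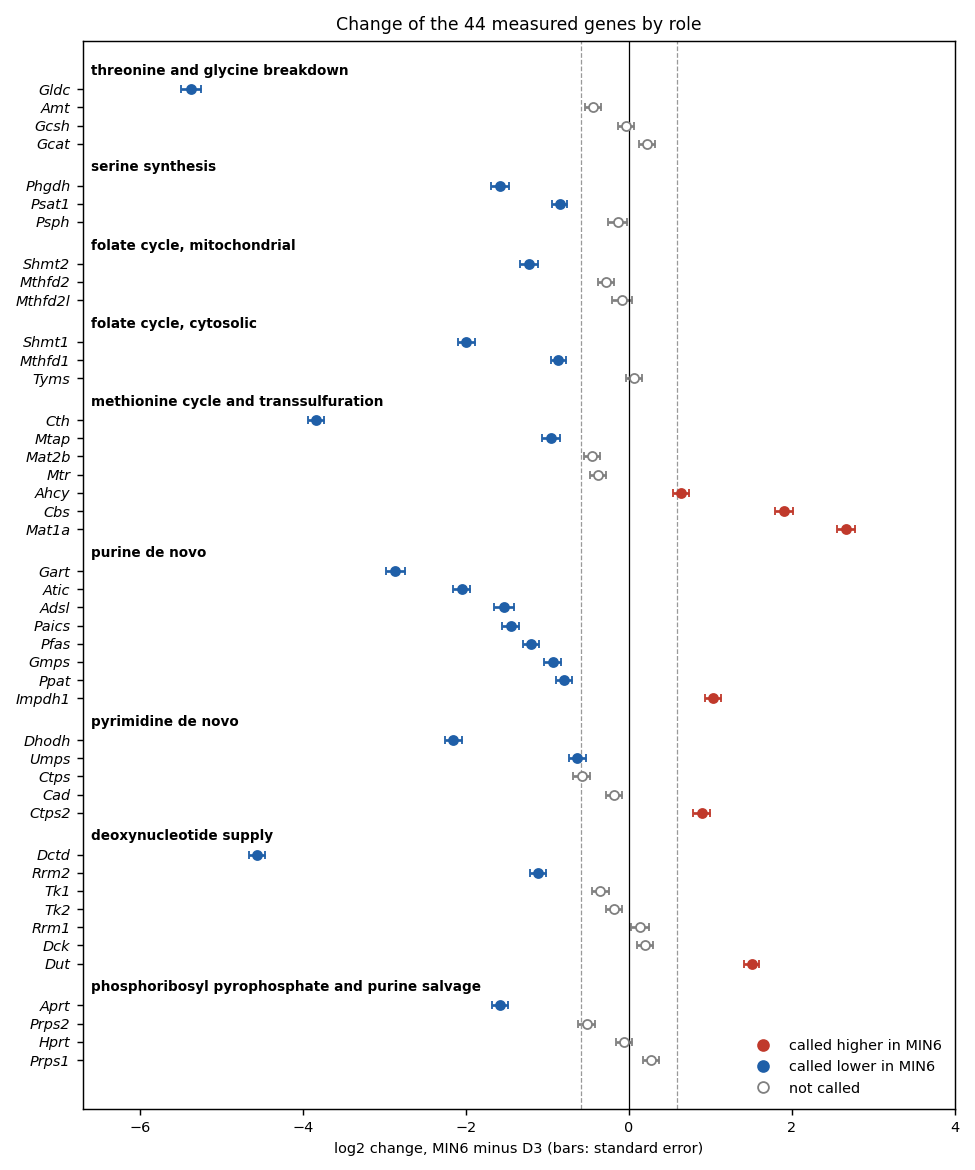
Log2 change of the brightest probe of each of the 44 measured enzymes (MIN6 minus D3, horizontal axis), grouped by role, with bars for 1 standard error from limma (3 arrays per line) and dashed lines at 1.5-fold. Blue points, the genes called lower, occur in every group, and 7 of the 8 purine synthesis genes are among them.

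The single largest change among the enzymes was in glycine breakdown. Gldc, the glycine decarboxylase that starts the glycine cleavage reaction in mitochondria and passes a carbon unit to folate, had log2 signals of 7.75, 8.17 and 8.15 on the MIN6 arrays, against 13.58, 13.38 and 13.25 on the D3 arrays. All MIN6 arrays were near background, 1 of them not above it, and all D3 arrays were far above. The log2 change was -5.37 (SE 0.12, adjusted p = 5.77e-19), which is 41.5-fold lower and placed Gldc at rank 87 of all genes by absolute change. The other Gldc probe was above background on no MIN6 array and gave at least 17.0-fold lower in MIN6 cells. This bound sets the D3 signal against the lowest signals above background on the MIN6 arrays. The partners of Gldc in the cleavage system were not called. Amt, the aminomethyltransferase, was above background on 1 MIN6 array and all D3 arrays, and its change of -0.44 (SE 0.10, adjusted p = 0.00106) was under 1.5-fold, and Gcsh, the carrier protein, was below background in both lines. Dld, the dehydrogenase that the system shares with other complexes, had overlapping arrays and stood at -0.36 (SE 0.12, adjusted p = 0.0213). Gcat, which completes the splitting of threonine that Tdh begins, had 12.74, 12.70 and 12.77 on the MIN6 arrays and 12.47, 12.56 and 12.52 on the D3 arrays. The MIN6 arrays lay slightly above the D3 arrays, and the gene was not called, at 0.22 (SE 0.09, adjusted p = 0.0714).

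Phgdh and Psat1, the genes of the opening steps of serine synthesis from glycolysis, had lower signals in MIN6 cells. Phgdh, the dehydrogenase that commits 3-phosphoglycerate to serine, measured 9.76, 9.69 and 9.32 in MIN6 cells, against 11.18, 11.11 and 11.24 in D3 cells. The lowest D3 array lay well above the highest MIN6 array, and the gene was 2.99-fold lower (log2 change -1.58, SE 0.11, adjusted p = 1.21e-10). Psat1, the aminotransferase of the next step, was 1.81-fold lower with bright signals of 13.10 to 13.20 in MIN6 cells and 13.92 to 14.05 in D3 cells. Psph, the phosphatase of the last step, was below background on all arrays and no fold is given.

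The serine hydroxymethyltransferases, which move a carbon from serine to folate and leave glycine, were lower in MIN6 cells in both compartments. Cytosolic Shmt1 had 9.91, 9.80 and 9.78 on the MIN6 arrays and 11.85, 11.94 and 11.70 on the D3 arrays, a 3.99-fold difference (log2 change -2.0, SE 0.10, adjusted p = 3.63e-13). Mitochondrial Shmt2 had 9.57, 9.75 and 9.28 on the MIN6 arrays and 10.82, 10.77 and 10.69 on the D3 arrays, and was 2.34-fold lower (log2 change -1.23, SE 0.11, adjusted p = 7.43e-09). Neither gene showed overlap between the lines, and a further probe of each gave the same call, at -2.33 for Shmt1 and -1.31 for Shmt2. Mthfd2, the mitochondrial folate dehydrogenase that is typical of embryonic and tumour cells, was bright in both lines (12.84 to 12.97 in MIN6 cells and 13.11 to 13.25 in D3 cells) and was not called, at -0.28 (SE 0.10, adjusted p = 0.0214). Its relative Mthfd2l was below background throughout. Tyms, the thymidylate synthase that takes a folate carbon into DNA precursors, was not called, at 0.06 (SE 0.10, adjusted p = 0.726), and its arrays overlapped. Mthfd1, the cytosolic enzyme with several folate activities, was 1.82-fold lower by its brightest probe, but its probes went in opposite directions, as described with the other such genes.

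Transsulfuration was split between its 2 enzymes. Cth, cystathionine gamma-lyase, which releases cysteine, measured 7.30, 7.29 and 7.47 in MIN6 cells, none above background, and 11.04, 11.31 and 11.24 in D3 cells. In MIN6 cells it was lower by at least 10.9-fold (adjusted p = 1.17e-17), and its other probe was below background in both lines. Cbs, cystathionine beta-synthase, which joins homocysteine to serine one step earlier, went the other way. Its signals were 10.60, 10.80 and 10.63 in MIN6 cells, against 8.53, 8.87 and 8.90 in D3 cells, so that all MIN6 arrays lay above all D3 arrays. The gene was 3.75-fold higher (log2 change 1.91, SE 0.11, adjusted p = 4.18e-12), and its other probe gave 2.20.

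The methionine cycle and transsulfuration together held 3 of the 6 enzymes that were higher in MIN6 cells. Of the 7 measured genes of this group, 3 were higher (42.9%) and 2 lower (28.6%), with a median log2 change of -0.38. Over all genes 17.1% were higher and 17.5% lower. Among the genes above background on all 6 arrays, a condition that 4 of the 7 met, 27.3% were higher and 28.9% lower. Mat1a, an S-adenosylmethionine synthetase known chiefly from liver, had 9.86, 9.84 and 9.69 in MIN6 cells and 6.95, 7.38 and 7.07 in D3 cells. No D3 array was above background, so Mat1a was higher in MIN6 cells by at least 4.04-fold (adjusted p = 1.98e-14). Ahcy, which removes the S-adenosylhomocysteine left by methylation, was 1.56-fold higher, with a mean log2 signal of 11.04 ± 0.05 in MIN6 cells and 10.41 ± 0.08 in D3 cells (SD, n = 3 each). Mtap, which recovers methionine and adenine from the by-product of polyamine synthesis, was 1.94-fold lower by its brightest probe and 3.04-fold lower by another. Mtr, the methionine synthase, was below background in both lines.

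A pair of these enzymes with an E-box were called in opposite directions, Cbs higher and Atic, an enzyme of purine synthesis, lower in MIN6 cells, and the stretch before the start of each is shown for that reason. The E-box is the letters CACGTG, the site read by Myc and related factors. Both sequences are 250 bases long, run 5′ to 3′ along the gene and come from the RefSeq annotation of GRCm38.p6, with the match in capitals. Cbs lies on the minus strand, at chr17:31637206-31637455, and Atic on the plus strand, at chr1:71556906-71557155.
Cbs: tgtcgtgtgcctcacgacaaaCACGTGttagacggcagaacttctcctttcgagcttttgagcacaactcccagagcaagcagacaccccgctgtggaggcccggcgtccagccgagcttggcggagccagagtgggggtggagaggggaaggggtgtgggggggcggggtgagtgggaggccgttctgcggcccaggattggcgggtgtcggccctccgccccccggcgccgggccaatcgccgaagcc
Atic: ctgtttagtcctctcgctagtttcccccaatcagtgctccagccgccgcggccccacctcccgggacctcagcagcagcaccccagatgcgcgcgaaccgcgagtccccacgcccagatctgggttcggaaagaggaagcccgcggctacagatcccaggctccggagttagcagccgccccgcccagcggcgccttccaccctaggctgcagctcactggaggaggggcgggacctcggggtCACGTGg
The match began 229 bases before the annotated start in Cbs and 7 bases before it in Atic. Of the 44 enzymes, 40 matched a RefSeq window of 300 bases, which runs between 250 bases before the start and 50 after it. An E-box on either strand, which reads the same on both, was in 5 of these 40 (12.5%), namely Atic, Cbs, Gcat, Paics and Tyms. It was in 8.09% of 27025 genes, where a gene with several windows counted if any of them held the motif. Of the 17 matched genes that were lower in MIN6 cells, 2 held it.

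Nearly all measured genes of purine synthesis were lower in MIN6 cells. All 8 measured genes were above background on all 6 arrays, and 7 of the 8 were lower in MIN6 cells (87.5%), with a median log2 change of -1.33. Among all genes above background on all 6 arrays, 28.9% were lower. Of the 7 lower genes, 6 act on the route to inosine monophosphate and 1, Gmps, on the branch to guanosine monophosphate. Gart, an enzyme with 3 activities in the early part of the route, had 9.81, 10.19 and 9.60 in MIN6 cells and 12.68, 12.77 and 12.75 in D3 cells. The D3 arrays were close together and far above the MIN6 arrays, and Gart was 7.30-fold lower (log2 change -2.87, SE 0.12, adjusted p = 2.18e-14), with -3.23 on its other probe. Atic, which closes the purine ring, measured 10.31, 10.13 and 10.28 in MIN6 cells against 12.25, 12.45 and 12.19 in D3 cells. It was 4.15-fold lower (log2 change -2.05, SE 0.10, adjusted p = 3.27e-13), and all 3 of its bright probes were lower, between -2.05 and -1.80.

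Adsl, the lyase that acts both on the way to inosine monophosphate and on the way to adenosine monophosphate, had 9.57, 9.44 and 8.99 in MIN6 cells, against 10.91, 10.82 and 10.87 in D3 cells, and was 2.89-fold lower (log2 change -1.53, SE 0.12, adjusted p = 7.27e-10). The third MIN6 array was the lowest, and all 3 lay under the D3 arrays, while the other Adsl probe was below background in both lines. Paics, which carries out a pair of middle steps, had 8.65, 8.51 and 8.57 in MIN6 cells and 10.04, 9.84 and 10.21 in D3 cells, a 2.73-fold difference (log2 change -1.45, SE 0.11, adjusted p = 1.98e-10). Pfas, the glutamine-using synthase before it, had 10.73, 10.74 and 10.74 in MIN6 cells and 11.90, 11.97 and 11.94 in D3 cells, and was 2.30-fold lower (log2 change -1.20, SE 0.09, adjusted p = 4.66e-10). The replicates of Pfas were the tightest of the purine genes in MIN6 cells. Ppat, which commits phosphoribosyl pyrophosphate to the route, was 1.73-fold lower, with 10.84 to 11.09 in MIN6 cells and 11.67 to 11.79 in D3 cells. Gmps, which makes guanosine monophosphate, was 1.92-fold lower, with 9.71 to 9.78 in MIN6 cells and 10.56 to 10.81 in D3 cells. The exception was Impdh1, a dehydrogenase that opens the guanine branch, which was 2.05-fold higher by its brightest probe (10.44, 10.36 and 10.35 in MIN6 cells, against 9.25, 9.44 and 9.35 in D3 cells).

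Ppat and Paics lie head to head on chromosome 5 with starts 276 bases apart, on opposite strands and with overlapping 5′ ends, so the window of each lies wholly downstream of the start of the other, within its gene. They are shown because both were lower in MIN6 cells and because they hold different motifs. Only the 30 bases around each match are given, 5′ to 3′ along the gene, from the same RefSeq build. Paics, on the plus strand at chr5:76951087-76951116, holds an E-box (capitals). Ppat, on the minus strand, holds the E2F motif TTTCCCGC on its opposite strand (capitals) at chr5:76951771-76951800 and again at chr5:76951718-76951747.
Paics: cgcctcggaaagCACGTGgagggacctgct
Ppat far match: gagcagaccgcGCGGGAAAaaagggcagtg
Ppat near match: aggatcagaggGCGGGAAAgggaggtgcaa
The E-box of Paics began 203 bases before its start, and the E2F matches of Ppat 211 and 158 bases before its start. The E2F motif was in 2 of the 40 matched enzymes (Ppat and Prps2) and in 1.24% of the 27025 genes. The motif TGATGNAA of the amino acid response was in 1 enzyme (Prps1) and in 4.51% of all genes. The windows of the enzymes held a median of 18 CpG pairs, against 8 over all genes, with the richest window taken for each gene. Both strands were searched, and a match describes the letters and not a bound site.

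**Figure D2:**
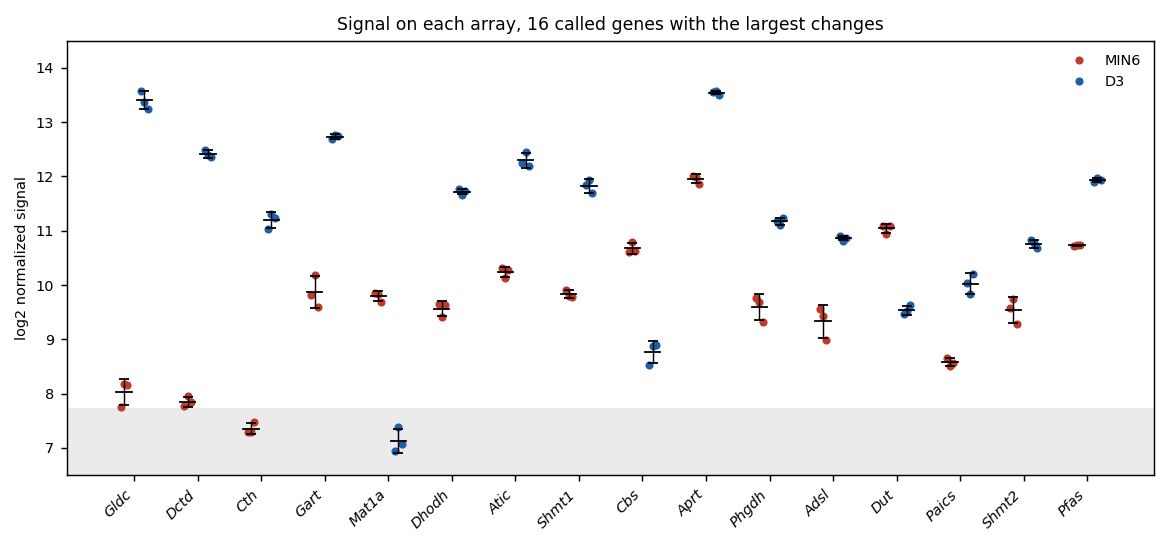
Log2 normalized signal on each array (vertical axis) for the 16 called enzymes with the largest changes, MIN6 arrays in red and D3 arrays in blue, with the mean and 1 SD of 3 arrays in black. The grey area lies under 7.72, the lowest normalized signal above background on any array. The 2 lines are apart for all 16 genes, and Cth in MIN6 cells and Mat1a in D3 cells lie in the grey area.

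The largest change in pyrimidine synthesis was in Dhodh. This gene, the mitochondrial dehydrogenase that yields orotate, had 9.65, 9.41 and 9.63 in MIN6 cells, against 11.77, 11.67 and 11.72 in D3 cells. No arrays overlapped, and it was 4.45-fold lower (log2 change -2.16, SE 0.10, adjusted p = 9.85e-14), while its other probes were below background in both lines. Cad, the large enzyme with the opening steps, was not called, at -0.19 (SE 0.10, adjusted p = 0.161), although its MIN6 arrays (10.09 to 10.12) lay just under its D3 arrays (10.14 to 10.38). Of the 2 CTP synthases, Ctps2 was 1.86-fold higher in MIN6 cells, with 9.84 to 9.86 there and 8.83 to 9.18 in D3 cells. Ctps, now named Ctps1, was just short of the 1.5-fold threshold by its brightest probe (12.31, 12.59 and 12.30 in MIN6 cells, against 12.94, 12.94 and 13.06 in D3 cells; log2 change -0.58, SE 0.10, adjusted p = 7.57e-05).

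Among the genes of deoxynucleotide supply, 3 of 7 were called, 2 lower (28.6%) and 1 higher (14.3%) in MIN6 cells. Of all genes 34.5% were called, and of the genes above background on all 6 arrays 28.9% were lower and 27.3% higher. Dctd, the deaminase that turns dCMP into dUMP for thymidylate, had 7.77, 7.95 and 7.84 in MIN6 cells, above background on 2 of the 3 arrays, and 12.49, 12.40 and 12.36 in D3 cells. It was the second largest change of the enzymes, 23.7-fold lower (log2 change -4.57, SE 0.10, adjusted p = 3.07e-19). Dut, which makes dUMP from dUTP and so reaches the same product by another route, had 11.09, 10.95 and 11.08 in MIN6 cells, against 9.46, 9.52 and 9.63 in D3 cells, and was 2.84-fold higher by its brightest probe (log2 change 1.5, SE 0.10, adjusted p = 2.60e-11). All MIN6 arrays were under all D3 arrays for Dctd and over them for this probe of Dut. Rrm2, the small subunit of ribonucleotide reductase, was 2.16-fold lower by its brightest probe (10.37, 10.32 and 10.44 in MIN6 cells and 11.60, 11.44 and 11.43 in D3 cells). Its partner Rrm1 had overlapping arrays and was not called on its brightest probe, at 0.14 (SE 0.11, adjusted p = 0.390). The salvage kinases Tk1, Tk2 and Dck were not called, at -0.35, -0.18 and 0.19.

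Of the 2 phosphoribosyltransferases of purine salvage, only Aprt was called. Aprt, which recovers adenine, had 12.02, 11.99 and 11.87 in MIN6 cells, against 13.56, 13.57 and 13.51 in D3 cells. It was 3.00-fold lower without overlap (log2 change -1.59, SE 0.10, adjusted p = 7.44e-12). Hprt, which recovers hypoxanthine and guanine, had overlapping arrays and stood at -0.06 (SE 0.10, adjusted p = 0.718). The synthetases of phosphoribosyl pyrophosphate, Prps1 and Prps2, were at 0.28 (adjusted p = 0.0300) and -0.52 (adjusted p = 0.000298), both under 1.5-fold. Over all 44 enzymes, 8 of the 18 genes that were not called had an adjusted p under 0.05 with a change under 1.5-fold, 7 of them with a negative change and 1 (Prps1) with a positive one. The difference between Aprt and Hprt was not tested.

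Several enzymes had probes that gave different calls. Of the 27 genes with more than 1 probe, 17 had at least 2 probes above background on all 6 arrays, and for 7 of the 17 these probes gave different calls. Over all 45281 probes, 13.4% were lower and 12.5% higher in MIN6 cells. How often probes of the same gene disagree over all genes is not given here. Mthfd1 was the only gene of the 17 whose probes above background on all 6 arrays were called in opposite directions. Mat2b, described below, also had a lower and a higher probe, but the higher one was not above background on every array. Its brightest probe had 11.02, 11.04 and 11.09 in MIN6 cells, against 11.95, 11.91 and 11.89 in D3 cells, a change of -0.87 (SE 0.09, adjusted p = 8.11e-08). Another had 9.33, 9.78 and 9.25 in MIN6 cells, against 8.77, 8.74 and 8.63 in D3 cells, a change of 0.74 (SE 0.12). Neither probe's arrays overlapped between the lines, so the direction of Mthfd1 depends on the probe. For Dut, the other bright probe had 9.31, 9.08 and 9.40 in MIN6 cells, against 9.82, 9.85 and 9.61 in D3 cells, and its change of -0.50 (SE 0.11) was not called. The 2 probes of Dut thus lay on opposite sides of 0.

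Mat2b, the regulatory subunit of the other S-adenosylmethionine synthetase, was not called by its brightest probe (10.66, 10.77 and 10.91 in MIN6 cells, against 11.30, 11.20 and 11.21 in D3 cells), at -0.45 (SE 0.10). A probe with 8.98, 9.04 and 8.64 in MIN6 cells, against 10.91, 10.87 and 10.89 in D3 cells, was lower, at -2.0 (SE 0.11), and one above background on 2 of 3 D3 arrays was higher, at 1.22 (SE 0.11). Mat2b therefore had a lower, a higher and an uncalled probe. Rrm1 had a second bright probe with 11.93, 11.93 and 11.74 in MIN6 cells, against 11.09, 11.23 and 10.92 in D3 cells, which was higher at 0.79 (SE 0.10). Of the 3 bright probes of Rrm2, 2 were lower, at -1.11 and -1.01, and one was not called at 0.40. For Umps, which makes uridine monophosphate, only the brightest probe was lower (11.10, 11.15 and 10.84 in MIN6 cells, against 11.61, 11.71 and 11.67 in D3 cells), at -0.64 (SE 0.10), and the others were at 0.09 and -0.07. The other probes of Ctps were lower, at -1.04 and -0.77, so all 3 of them were below 0. The other probes of Pfas and Ppat were above background on no MIN6 array and were not called. Of the other probes of Impdh1, one was above background on no D3 array and was called higher (at least 1.21-fold) and one was above background on 1 MIN6 array and was not called, at -0.42. With all probes of each gene averaged, 2 of the 6 higher genes (Cbs and Mat1a) were called, without Ahcy, Ctps2, Dut and Impdh1, and 18 genes were called lower, without Mthfd1, Rrm2 and Umps and with Ctps. The average also includes probes below background in both lines, and with them the changes of Dhodh, Cth and Adsl became -0.76, -1.90 and -0.76 and stayed called. Umps was also not called without the third MIN6 array, which left 19 lower genes. Which transcripts these probes read was not analysed here.

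**Figure D3:**
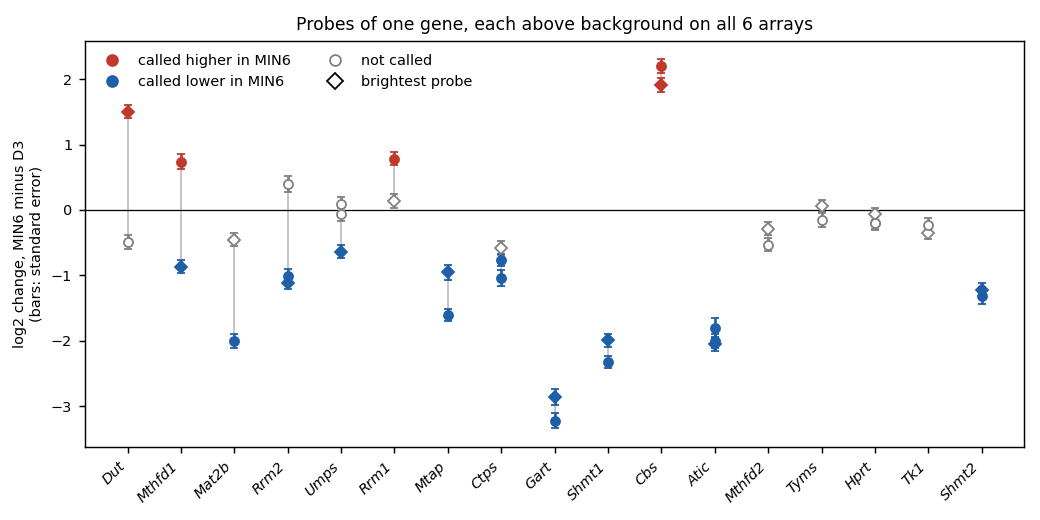
Log2 change (MIN6 minus D3, vertical axis, bars for 1 standard error, 3 arrays per line) of each probe that was above background on all 6 arrays, for the 17 enzymes with at least 2 such probes. Diamonds mark the brightest probe, and the probes of Mthfd1, Dut, Rrm2, Umps and Tyms lie on both sides of 0.

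Calls among other genes of the same pathways went both ways, in shares above those of all genes. In 4 further lists of folate, methionine, purine and pyrimidine genes, 26 of 89 measured genes were lower in MIN6 cells (29.2%) and 23 were higher (25.8%). Their median change was -0.02. Over all genes the shares were 17.5% and 17.1%. Among the genes above background on all 6 arrays they were 28.9% and 27.3%. Only 49 of the 89 met that condition, so the latter shares are not a like comparison. Among 18 other folate and glycine genes, 5 were lower and 2 higher. The largest was Aldh1l2, a mitochondrial folate dehydrogenase, 9.88-fold higher (12.33, 12.12 and 12.40 in MIN6 cells, against 8.88, 9.08 and 8.97 in D3 cells, adjusted p = 1.37e-16). Folr1, a folate receptor, and Fpgs, which keeps folate in the cell by adding glutamates, were 3.38-fold and 3.14-fold lower. Among 22 other genes of methionine, sulfur amino acid and polyamine metabolism, 6 were lower and 6 higher. Ahcyl1, a relative of Ahcy better known as a regulator of calcium release, was 4.29-fold higher, Cdo1, the cysteine dioxygenase, 3.22-fold higher, and Sqor, a sulfide oxidase, at least 2.62-fold higher.

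Of 22 other purine genes, 7 were lower and 5 higher in MIN6 cells. The AMP deaminases Ampd3 and Ampd1 were at least 5.95-fold and at least 2.22-fold lower, each above background on no MIN6 array. The AMP deaminase Ampd2 went the other way, 2.88-fold higher (adjusted p = 4.23e-11), and was above background on all arrays. The adenylate kinase Ak4 was at least 8.11-fold lower and above background on no MIN6 array. Of 27 other pyrimidine and deoxynucleotide genes, 8 were lower and 10 higher. Upp1, the uridine phosphorylase of pyrimidine salvage, was 25.6-fold lower (9.82, 9.86 and 9.68 in MIN6 cells, against 14.54, 14.46 and 14.39 in D3 cells, adjusted p = 2.33e-19). Upb1, of pyrimidine breakdown, was at least 13.6-fold higher, and Cmpk2, a mitochondrial nucleotide kinase, at least 6.86-fold higher.

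Genes of the amino acid response and of cell division were counted beside the enzymes, since both are known to be tied to these pathways. For both lists the shares over all genes were 17.5% lower and 17.1% higher. Among the genes above background on all 6 arrays they were 28.9% and 27.3%. Of 17 measured targets and regulators of the amino acid response, 14 of them above background on all 6 arrays, 7 were lower (41.2%) and 2 higher (11.8%) in MIN6 cells. Ddit4 and Trib3, both stress-induced regulators of growth signalling, were 8.05-fold and 4.17-fold lower, and Stc2, a secreted glycoprotein, at least 3.27-fold lower. Atf4, the factor that heads the response, was not called, at -0.05 (SE 0.10, adjusted p = 0.788), and neither was Asns, asparagine synthetase, at -0.20 (SE 0.09, adjusted p = 0.105). Of 23 genes of S phase and division, 11 were lower (47.8%) and 3 higher, with a median of -0.50. Ccne1 was 3.97-fold lower while its relative Ccne2 was 3.26-fold higher, both cyclins of entry into S phase, and Plk1, a mitotic kinase, was 8.16-fold higher. The shares called lower in the division list and in the 44 enzymes were close, at 47.8% and 45.5%, and the part of growth rate in the enzyme changes was not tested.

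**Figure D4:**
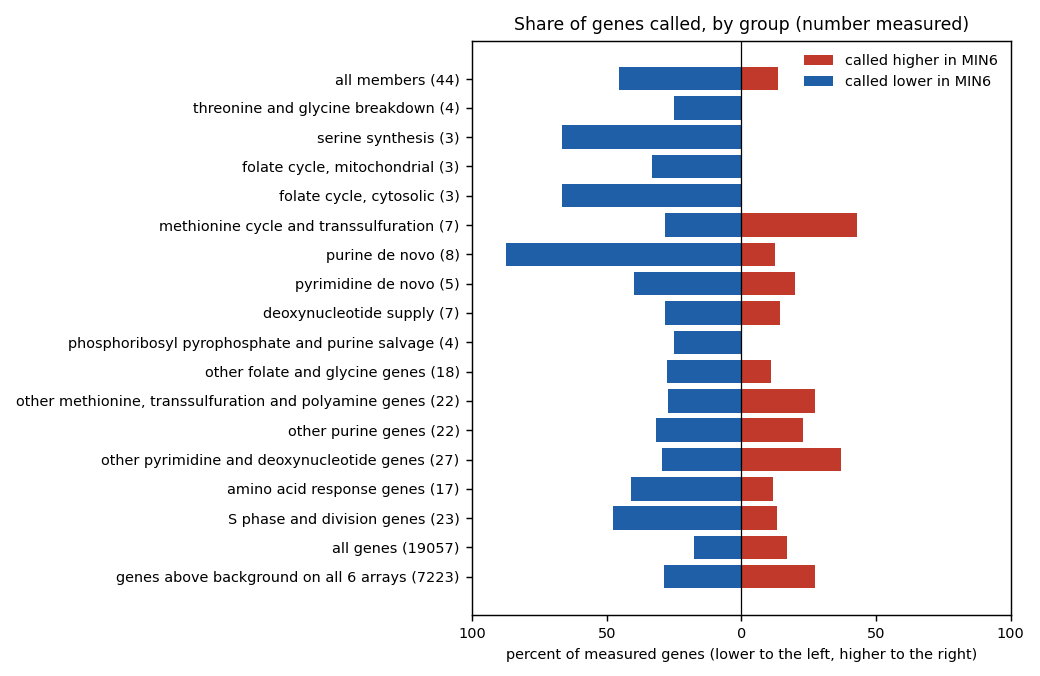
Percent of measured genes called lower in MIN6 cells (blue, to the left) and higher (red, to the right) for the enzymes by role, the further lists and all genes, with the number measured in brackets. Purine synthesis has 87.5% lower, and all genes have 17.5% lower and 17.1% higher.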

How the data were processed

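RNA from 3 samples each of MIN6 and D3 cells was read on 6 arrays. The authors deposited linear signal intensities of 45281 probes before any normalization or background subtraction. The deposited detection score, despite its heading as a p-value, is 1 minus p, and p was recovered from it. Processed values on a log2-like scale, which the authors quantile-normalized with lumi per the methods, served only as an alternative, since their transformation is not stated.

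Intensities were quantile-normalized, taken to log2 and fitted with limma 3.58.1 in R 4.3.3 (lmFit and eBayes, MIN6 minus D3, no block). P-values were adjusted over all probes, with no filter on signal. Genes were called at an adjusted p under 0.05 with a change of 1.5-fold or more, and above background means a detection p under 0.01. For a line with no array above background, the fold was taken against the lowest normalized signal above background on each of its arrays (or the probe's own signal if higher) and is a lower bound. The probe with the largest mean log2 signal stands for its gene. By the platform annotation, 34885 probes have 1 gene symbol, 18 have several and 10378 none. Only 3 arrays per line limit the precision, and p-values measure the spread between samples, which may be technical.

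The genes and lists were chosen with earlier results of these data known. Values on each array are given for the 16 called enzymes with the largest changes and for those whose probes gave different calls, and 3 called genes are named per list. Dld, Atf4, Asns, Ampd2, Thy1, Eomes, Nes, Pax6, Foxa2, Krt7, Krt19 and Cela1 were named after their values were seen. The steps were tested on simulated data. The replicate numbers did not pair the arrays. Promoter windows came from RefSeq, GRCm38.p6, and were read with Python 3.11.15 and pandas 2.3.3. Figures were drawn with numpy 2.4.6 and matplotlib 3.10.9.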

Additional observations from a re-analysis of the deposited data

How the results depend on the processing

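Each count and each enzyme's call was computed again under 21 alternatives, and no enzyme was called in the opposite direction under any of them. None of the alternatives took the other bright probe of Mthfd1 by itself, which was called higher at 0.74, so they could not show that reversal. The enzymes called lower in MIN6 cells numbered 18 to 23 under every alternative that kept the fold threshold of 1.5, with 14 at 2-fold and 27 with no fold threshold, against 20. Those called higher numbered 6 or 7, with 4 at 2-fold, apart from 2 when all probes of a gene were averaged, which also lost Ahcy, Ctps2, Dut and Impdh1 among the higher and Mthfd1, Rrm2 and Umps among the lower genes. The median log2 change of the enzymes, -0.49, became -0.63 with normexp background correction, -0.37 with median scaling, -0.40 with cyclic loess, -0.37 with no normalization, -0.61 and -0.58 with detection filters (40 and 41 enzymes), -0.39 with all probes averaged and -0.58 with the probe of largest change. At 2-fold, 14 other pathway genes were higher (against 23), while a larger share of the lower ones kept their call. Over all genes 2162 were higher and 2069 lower (against 3251 and 3329). The cause was not tested, beyond the stricter threshold itself. Umps was lost with median scaling, cyclic loess, no normalization and without MIN6 replicate 3. Ctps was gained with normexp, median scaling, no normalization, the authors' processed values, both other choices of probe, and without MIN6 replicate 2 (as was Prps2), D3 replicate 1 or D3 replicate 2. Normexp also gained Amt and Mtr, and the probe of largest change Mat2b and Rrm1. With normexp the changes of Gldc, Dctd, Cth and Mat1a were larger, at -6.28, -5.61, -5.50 and 4.33, and with the authors' processed values Mat1a was at 1.93.

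Leaving out each array in turn gave 19 to 22 lower and 6 higher enzymes, a median of -0.52 to -0.44, 24 to 26 lower and 22 to 23 higher other pathway genes, and over all genes 3327 to 3368 lower and 3252 to 3277 higher. With the replicate number as a block, 20 enzymes were lower and 6 higher, with no call changed. Deviations of arrays with the same number correlated at -0.02 to 0.02, so the numbers do not pair the arrays. The methods' t-test called 20 enzymes lower and 6 higher, before and after Benjamini-Hochberg adjustment. A slide block was not run, since the files used here name no slide. Signals near background limit Gldc and Dctd in MIN6 cells, whose folds could be larger, and leave Gcsh, Psph, Mthfd2l and Mtr without a fold.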
